A study of Mus musculus with 31 samples.

Results

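Messenger RNA carried by polysomes, the heavy gradient fractions in which several ribosomes translate the same molecule, was compared between newborn and embryonic neocortex of wild-type (WT) mice. The 3 WT polysome libraries from the day of birth (P0) were set against the 2 from embryonic day 13 (E13), chosen by the genotype, age and fraction in their labels, which makes 5 of the 31 libraries of the series. The whole study sequenced poly(A) RNA of neocortex from WT mice and from mice labelled cKO, a conditional knockout of Elavl1, which encodes the RNA-binding protein HuR. Both ages were taken as total, monosome and polysome RNA. Both groups compared were labelled WT with no treatment, so they differ by age alone as far as the labels go. The sources used here give no strain, sex, number of animals in a library or Cre line. Nothing says that replicates came from separate animals, so p-values here cover only the spread among libraries, which may be technical. Cortices were lysed fresh or after freezing in a buffer with cycloheximide, which holds ribosomes on their mRNA, and equal volumes of gradient fractions 9 to 12 of 14 formed the polysome pool.

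At midgestation the neocortical wall consists largely of dividing progenitors, the radial glia and the intermediate progenitors they give rise to, and of the early-born neurons of the deep layers. Around birth the making of excitatory neurons is ending, upper-layer neurons are migrating or settling, axons and synapses are forming, and glia begin to appear. The level of an mRNA in a polysome pool depends both on how much of it the tissue holds and on how many ribosomes it carries. In tissue lysates, fewer cells of a type and less RNA per cell cannot be told apart.

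Levels are FPKM, fragments per kilobase of transcript scaled for library size, in a way that the sources used here do not state. Differences are log2 fold changes of FPKM + 1, P0 minus E13, ± the standard error (SE) of a limma fit. The added 1 understates the change of genes with low values. Among 12123 genes tested, 6918 (57.1%) differed at an adjusted p under 0.05, of which 2870 (23.7% of all genes tested) were higher at P0 and 4048 (33.4%) were lower. At an absolute log2 fold change of at least 1 as well, 1922 genes were higher and 2489 lower, and 44 were higher and 38 lower by over 16-fold. The 3 P0 libraries all lay above both E13 libraries for 3342 genes (27.6%) and all below them for 4821 (39.8%). The median log2 fold change of all genes was -0.19, and rescaling the libraries by median ratios moved it to -0.05 and the split to 3267 higher and 3320 lower, so each list below is read against that shift.

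**Figure D1:**
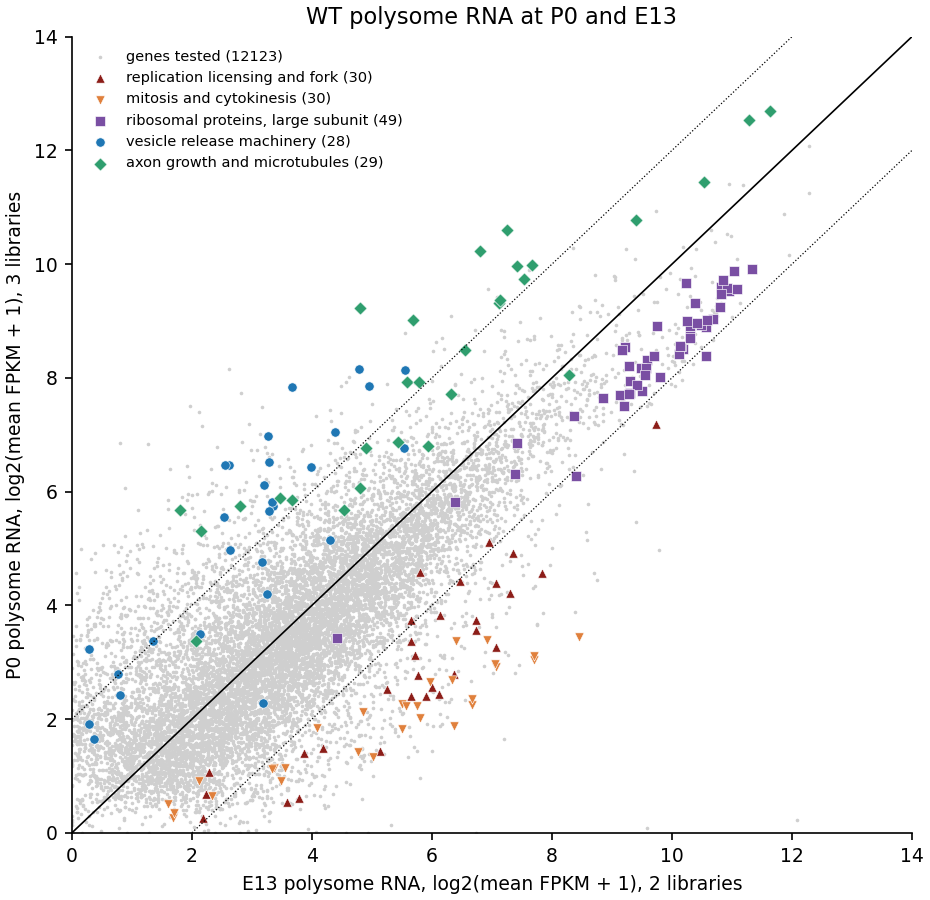
Mean polysome level of the 12123 genes tested at E13 (horizontal axis, 2 libraries) and P0 (vertical axis, 3 libraries), both as log2(mean FPKM + 1), with 5 gene lists coloured. The solid line marks equal levels and the dotted lines a 4-fold difference. Replication and mitosis genes lie below the solid line, and vesicle release and axon growth genes above it except for Slc17a6 and Marcks. Large-subunit ribosomal protein genes form a band at high levels below it.

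Summed FPKM was 627330 and 455546 in the E13 libraries and 391659, 404874 and 435546 in the P0 libraries. Across genes, which are not independent replicates, log2 levels correlated at 0.9595 between the E13 pair, 0.960 to 0.977 between P0 libraries and 0.728 to 0.816 across ages. The E13 pair differed in content: replicate 0 was above replicate 1 for 47 of 49 large-subunit and 33 of 33 small-subunit ribosomal protein genes, and below it for 26 of 28 vesicle release and 15 of 15 upper-layer genes. Y-linked Eif2s3y read 0.0493 and 6.296 FPKM at E13 and 30.96, 22.1 and 13.4 FPKM at P0, so E13 replicate 0 held almost none of it, and its call (adjusted p = 0.00575) was lost without that library (0.171). Markers of neocortex were present at both ages, and 17 of 19 markers of other brain regions stayed under the mean of 1 FPKM required for testing.

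DNA replication and cell division genes fell as whole lists. All 30 genes of replication licensing and the replication fork fell, and their median log2 fold change was -2.74. All 30 genes of mitosis and cytokinesis fell too (median -3.34). Of all genes tested 33.4% were lower, and their median was -0.19. Summed over the mitosis list, polysome levels were 2444 and 1660 FPKM at E13 and 82.42, 121.2 and 129.6 FPKM at P0. Every P0 library lay more than 10-fold under both E13 libraries. The replication sums were 3542 and 2208 FPKM at E13 and 386.5, 428.8 and 471.2 FPKM at P0.

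Because the members of both lists fell together, their promoters are shown for the motifs known from cell cycle genes, the E2F site and the cell cycle homology region (CHR) with its CCAAT boxes. Promoters ran from 250 bases before to 50 after the RefSeq start on GRCm38.p6. An E2F site was counted where the letters TTTGGCGC, TTTCCCGC, TTTGCCGC, TTTCGCGC, TTTGGCGG or TTTCCCGG occurred on either strand. It occurred in 13 of 30 promoters of the replication list (43.3%), 3 of 28 of the mitosis list (10.7%), 6.76% of 11243 promoters of genes tested and 3.98% of all 32851 promoters. These 80 bases up to the start of 4 such genes carry it in capitals, for Orc1 of the origin recognition complex (chr4:108579374-108579453, plus strand), Mcm6 of the replicative helicase (chr1:128359706-128359785, minus strand), Rfc3 of the clamp loader (chr5:151651209-151651288, minus strand) and the mitotic survivin gene Birc5 (chr11:117849157-117849236, plus strand), each printed 5′ to 3′ along its gene.
Orc1: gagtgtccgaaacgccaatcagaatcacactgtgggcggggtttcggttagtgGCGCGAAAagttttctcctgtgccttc
Mcm6: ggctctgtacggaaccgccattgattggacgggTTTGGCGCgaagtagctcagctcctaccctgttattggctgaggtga
Rfc3: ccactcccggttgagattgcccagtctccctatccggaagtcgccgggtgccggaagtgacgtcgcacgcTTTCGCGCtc
Birc5: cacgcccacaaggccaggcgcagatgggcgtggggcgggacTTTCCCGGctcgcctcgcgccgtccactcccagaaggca
Polysome levels of these genes fell with the lists. Orc1 read 3.58 and 3.51 FPKM at E13 and 0.239, 0.231 and 0.135 FPKM at P0. Mcm6 read 213 and 101 at E13 and 18.1, 16.7 and 18.2 at P0. Rfc3 read 152 and 92.8 at E13 and 28.4, 35.7 and 36.3 at P0. Birc5 read 169 and 96.1 at E13 and 4.43, 7.12 and 8.19 at P0.

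The CHR was counted where TTTGAA or TTCGAA lay on either strand within 50 bases of the start, and the CCAAT box as CCAAT on either strand anywhere in the promoter. A CHR occurred in 21 of 28 mitosis promoters (75.0%), 2 of 30 replication promoters (6.67%), 3.42% of promoters of genes tested and 5.31% of all. A CCAAT box occurred in 22 mitosis promoters (78.6%), 17 replication promoters (56.7%), 37.9% of those of genes tested and 37.4% of all. In the following 80 bases up to the start, capitals mark the CHR and every CCAAT box, read on either strand. They belong to Ube2c (chr2:164769849-164769928, plus strand) and Cdc20 (chr4:118437344-118437423, minus strand), which drive mitotic exit through the anaphase-promoting complex, Cdk1 (chr10:69352913-69352992, minus strand), the mitotic kinase, and Top2a (chr11:99024190-99024269, minus strand), which untangles chromosomes.
Ube2c: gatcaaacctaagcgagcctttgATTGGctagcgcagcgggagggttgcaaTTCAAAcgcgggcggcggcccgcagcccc
Cdc20: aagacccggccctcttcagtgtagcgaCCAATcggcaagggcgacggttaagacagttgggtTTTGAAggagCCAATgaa
Cdk1: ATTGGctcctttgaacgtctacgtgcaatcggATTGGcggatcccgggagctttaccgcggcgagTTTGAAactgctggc
Top2a: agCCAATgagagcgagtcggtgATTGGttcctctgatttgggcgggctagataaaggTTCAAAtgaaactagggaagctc
A match describes the letters in these windows and says nothing of binding.

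Mcm2, a subunit of the replicative helicase, read 72.6 and 63.8 FPKM at E13 and 4.27, 3.96 and 5.05 FPKM at P0 (log2 fold change -3.67 ± 0.18, adjusted p = 2e-09). Its 3 P0 libraries agreed closely and lay more than 10-fold under both E13 libraries. Cdt1, which loads that helicase, read 38.99 and 29.6 at E13 and 1.76, 1.200 and 2.19 at P0 (log2 fold change -3.70 ± 0.23, adjusted p = 1.32e-08). Mcm10 read 12.8 and 12.8 at E13 and 0.409, 0.502 and 0.659 at P0. Cdc6, another loading factor, read 13.6 and 8.41 at E13 and 0.432, 0.496 and 0.452 at P0. Neither overlapped between ages. Among mitotic genes, Ube2c read 452 and 245 FPKM at E13 and 6.53, 11.2 and 11.9 FPKM at P0 (log2 fold change -4.98 ± 0.31, adjusted p = 1.32e-08), a fall of 35.3-fold in the mean. The polo kinase gene Plk1 read 91.2 and 71.8 at E13 and 1.88, 3.16 and 2.99 at P0 (log2 fold change -4.50 ± 0.24, adjusted p = 3.47e-09). The kinesin gene Kif20a read 32.1 and 30.9 at E13 and 1.39, 1.68 and 1.51 at P0 (log2 fold change -3.69 ± 0.19, adjusted p = 2.56e-09). Nusap1, of the spindle, and Cdc20 also fell without overlap, by log2 fold changes of -3.53 and -4.52. Of 13 genes of cell cycle exit and G1 control, 9 fell (69.2%) and none rose (median -1.21), against 33.4% and 23.7% of all genes tested. Cyclin D2, a G1 cyclin of cortical progenitors, was among them, with Ccnd2 at 416 and 342 FPKM at E13 and 35.5, 41 and 37.9 FPKM at P0 (log2 fold change -3.27 ± 0.33, adjusted p = 9e-07). So were Ccnd1 (-2.35), Rbl1, a retinoblastoma family gene (-2.48), and Btg2, which marks progenitors about to make neurons (-3.30).

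Most progenitor genes fell with the cell cycle genes. Of 20 radial glia genes, 15 fell and 3 rose (median -2.45), against 33.4% and 23.7% of all genes tested. Of the intermediate progenitor genes, 11 of 13 fell and none rose (median -3.29). Neurog2, the proneural factor of cortical progenitors, read 149 and 145 FPKM at E13 and 1.25, 2.196 and 2.92 FPKM at P0 (log2 fold change -5.60 ± 0.27, adjusted p = 1.93e-09), a 69.2-fold lower mean at P0. Its relative Neurog1 read 16.3 and 15.2 FPKM at E13 and was listed at 0 in 2 of 3 P0 libraries. Eomes, the defining factor of intermediate progenitors, read 52.9 and 98.5 at E13 and 2.75, 5.796 and 6.903 at P0 (log2 fold change -3.64 ± 0.42, adjusted p = 3.23e-06). Pax6, of radial glia, read 77.5 and 67.7 FPKM at E13 and 5.38, 7.77 and 9.17 FPKM at P0 (log2 fold change -3.15 ± 0.25, adjusted p = 7.85e-08). Gli3, of Hedgehog signalling, Hes1, a Notch target, and Prom1 fell by log2 fold changes of -3.03, -3.37 and -3.40. Nes and Vim, which encode intermediate filaments of progenitors, read 40.6 and 63.2 at E13 and 11.3, 9.34 and 11.3 at P0 and 673 and 647 at E13 and 66.1, 67.5 and 112 at P0.

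The 3 radial glia genes that rose are Fabp7, a fatty acid binding protein, Slc1a3, a glutamate transporter, and Tnc, a matrix protein, all of which astrocytes express too. Fabp7 read 461 and 738 FPKM at E13 and 972, 1425 and 1292 FPKM at P0 (log2 fold change 1.06 ± 0.32, adjusted p = 0.011). Slc1a3 read 13.7 and 17.9 at E13 and 42.6, 33.6 and 26.7 at P0 (log2 fold change 1.06 ± 0.28, adjusted p = 0.00507). Without E13 replicate 0, Tnc alone of the 3 was called, with adjusted p of 0.14 for Fabp7 and 0.064 for Slc1a3. Hopx and Nr2f1 of the radial glia list and Insm1 and Neurod1 of the intermediate progenitor list were not called. Of 19 Notch pathway genes, 16 fell and 1 rose (median -2.20), against 33.4% and 23.7% of all genes tested. The ligand gene Dll1 read 31.8 and 26.4 FPKM at E13 and 3.94, 3.16 and 3.06 FPKM at P0 (log2 fold change -2.78 ± 0.18, adjusted p = 1.65e-08). The receptor gene Notch3 read 9.91 and 9.93 at E13 and 1.39, 0.656 and 1.01 at P0 (log2 fold change -2.45 ± 0.22, adjusted p = 3.41e-07). The coactivator gene Maml1 read 12.6 and 11.3 at E13 and 2.69, 2.78 and 3.15 at P0 (log2 fold change -1.74 ± 0.17, adjusted p = 6.66e-07). The 3 fringe genes, which modify Notch receptors with sugar, split. Mfng fell from 34.8 and 25.6 to 1.54, 1.85 and 3.29 FPKM and Lfng from 42.6 and 26.02 to 4.93, 4.18 and 4.27. Rfng rose from 8.496 and 5.197 to 21.6, 17.3 and 27.7, with no overlap between ages in any of them.

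**Figure D2:**
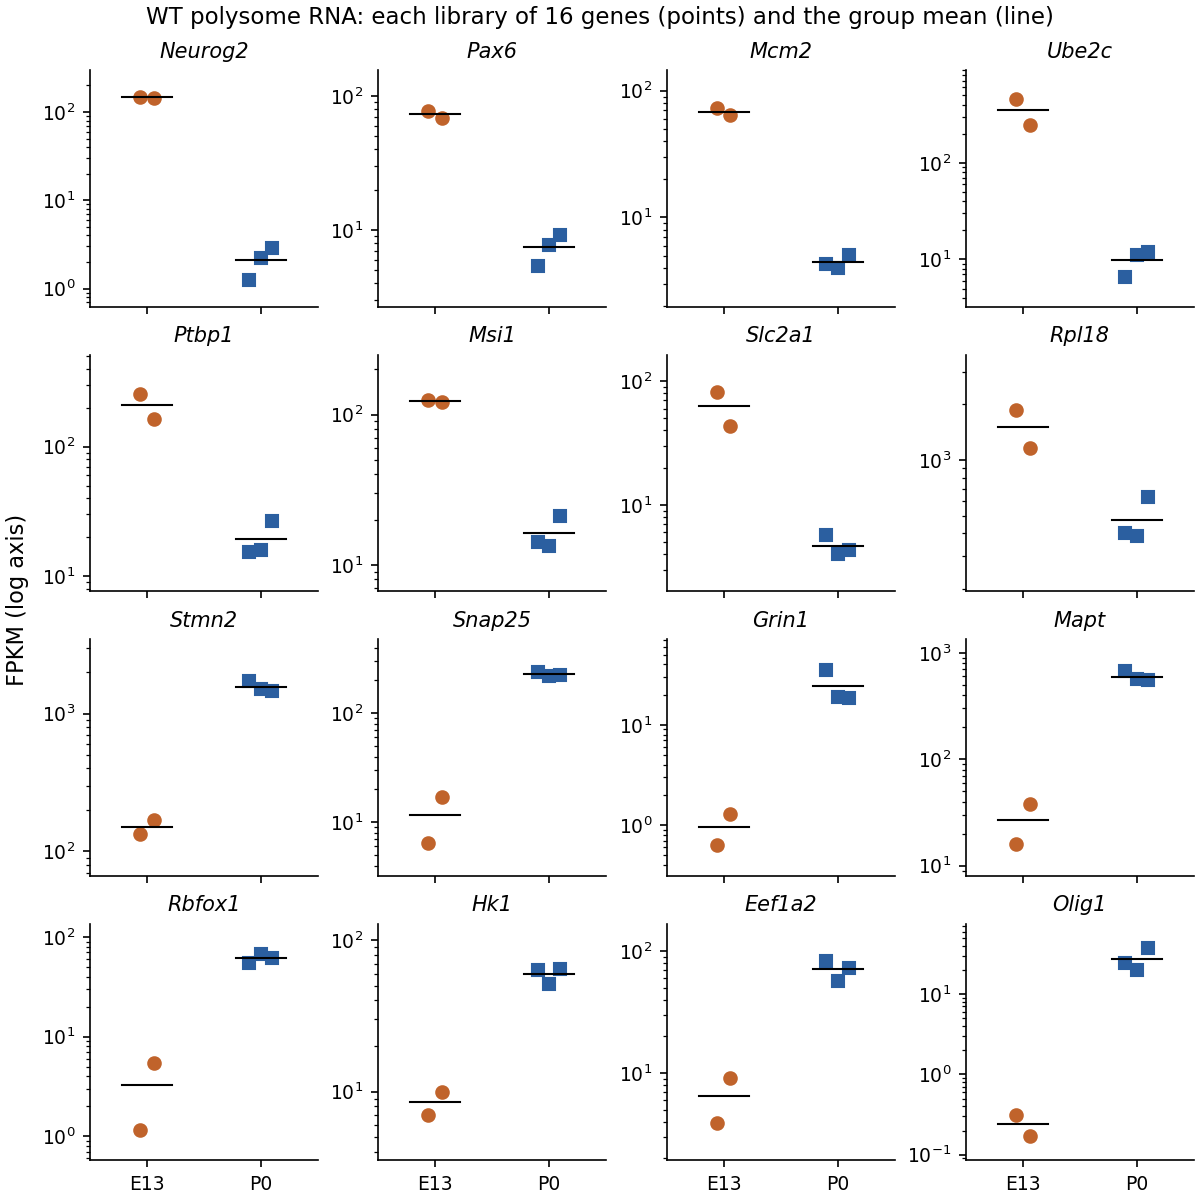
Polysome FPKM (log axis) of 16 genes in each of the 5 libraries, E13 on the left and P0 on the right, with points for libraries and a line for the group mean. The ages do not overlap in any of the 16: Neurog2, Pax6, Mcm2, Ube2c, Ptbp1, Msi1, Slc2a1 and Rpl18 are lower at P0, and Stmn2, Snap25, Grin1, Mapt, Rbfox1, Hk1, Eef1a2 and Olig1 are higher.

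Genes of axon growth, the cytoskeleton and transmitter release rose. Of 29 axon growth and microtubule genes, 28 rose (median log2 fold change 2.23). Of 28 vesicle release genes, 27 rose (median 2.41). Of all genes tested, 23.7% were higher. Marcks, an actin-binding protein of growth cones, did not pass the test and read 266 and 354 FPKM at E13 and 273, 259 and 266 FPKM at P0 (adjusted p = 0.449). Nor did Slc17a6, the vesicular glutamate transporter of early neurons, which read 4.72 and 11.5 at E13 and 3.46, 5.03 and 3.17 at P0 (adjusted p = 0.1). Both lists were lower in E13 replicate 0 than in replicate 1 in most members, 24 of 29 and 26 of 28. Without replicate 0, 25 and 26 members were called higher, and Slc17a6 was called lower (adjusted p = 0.0305).

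Stmn2, a tubulin-binding protein of growth cones, was among the most abundant of these mRNAs at birth, at 133 and 168 FPKM at E13 and 1726, 1496 and 1459 FPKM at P0 (log2 fold change 3.37 ± 0.24, adjusted p = 2.95e-08). Gap43, a membrane protein of growing axons, read 73.6 and 148 at E13 and 1209, 1060 and 1337 at P0 (log2 fold change 3.50 ± 0.30, adjusted p = 1.69e-07). Mapt, which encodes the microtubule protein tau, read 16.1 and 37.8 at E13 and 669.9, 565 and 557 at P0 (log2 fold change 4.53 ± 0.36, adjusted p = 8.39e-08). Its lowest P0 library was more than 10-fold above its highest E13 library. The neurofilament genes Nefl and Nefm rose by log2 fold changes of 3.87 ± 0.30 and 3.16 ± 0.23. Snap25, a SNARE protein of vesicle fusion, read 6.47 and 16.9 FPKM at E13 and 238, 221 and 224 FPKM at P0 (log2 fold change 4.31 ± 0.34, adjusted p = 7.25e-08). The other core SNARE genes rose as well, Stx1a from 7.17 and 10.3 to 94.5, 70.3 and 108 FPKM and Vamp2 from 23.1 and 30.2 to 185, 339.5 and 324. Napb, which helps take SNARE complexes apart, read 3.26 and 6.27 at E13 and 50.7, 43.9 and 43.9 at P0 (log2 fold change 3.08 ± 0.22, adjusted p = 3.36e-08). Rims1, of the active zone, read 0 and 0.43 at E13 and 11.1, 7.63 and 6.54 at P0 (log2 fold change 2.95 ± 0.24, adjusted p = 1.06e-07).

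Receptor and scaffold genes of glutamate synapses rose in 25 of 30 members tested (median 2.19), and 12 of 12 GABA-A receptor list members rose (median 2.00). The share of all genes tested that rose was 23.7%. Grin1, the obligatory NMDA receptor subunit, read 0.629 and 1.296 FPKM at E13 and 35.6, 18.7 and 18.4 FPKM at P0 (log2 fold change 3.64 ± 0.30, adjusted p = 1.39e-07). P0 replicate 0 was the highest library, as it was for Grin2b (0.0215 and 0.186 at E13 and 5.396, 2.797 and 1.66 at P0) and Grin3a (0.0248 and 0.0615 at E13 and 16.6, 7.297 and 4.53 at P0). Grin2b and Grin3a had log2 fold changes of 1.86 ± 0.30 and 3.16 ± 0.38. Grin2a and Grin2d stayed under the mean of 1 FPKM required for testing. Of the AMPA receptor subunits, Gria1 read 0.788 and 4.32 FPKM at E13 and 39.2, 27.4 and 21.6 FPKM at P0 (log2 fold change 3.26 ± 0.46, adjusted p = 2.61e-05). Gria2 read 1.24 and 2.84 at E13 and 18.7, 15.5 and 5.93 at P0. Gria3 read 0.157 and 1.57 at E13 and 12, 5.63 and 4.002 at P0. Gria4 read 0.871 and 1.604 at E13 and 15.01, 11.3 and 7.69 at P0. All 4 were called higher without overlap.

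The Dlg genes, which encode scaffolds of the postsynaptic density and of cell junctions, went separate ways. Dlg2 read 1.34 and 3.76 FPKM at E13 and 61.1, 66.5 and 49.2 FPKM at P0 (log2 fold change 4.15 ± 0.27, adjusted p = 2.06e-08). Dlg4, which encodes PSD-95, read 17.6 and 31.97 at E13 and 109, 99.1 and 144 at P0 (log2 fold change 2.24 ± 0.29, adjusted p = 1.28e-05). Dlg1 fell from 22.1 and 17.6 to 8.903, 7.67 and 7.35 FPKM (log2 fold change -1.21 ± 0.20, adjusted p = 0.000107) and was the one member of the list called lower, and 2 were without E13 replicate 1 or P0 replicate 1. Dlg3 read 20.7 and 20.1 at E13 and 13.3, 19.5 and 13.8 at P0 and was not called (adjusted p = 0.124, and 0.0413 without P0 replicate 1). Dlgap1, which binds these scaffolds, read 0.398 and 1.05 at E13 and 25.5, 26.2 and 24.2 at P0 (log2 fold change 3.95 ± 0.21, adjusted p = 3.93e-09).

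Gabra5, the GABA-A receptor subunit with the smallest adjusted p, read 0.0944 and 0.527 FPKM at E13 and 24.7, 23.9 and 20.7 FPKM at P0 (log2 fold change 4.21 ± 0.25, adjusted p = 7.86e-09). Gabra2 read 1.63 and 4.29 at E13 and 31, 19.4 and 5.08 at P0 (log2 fold change 2.08 ± 0.56, adjusted p = 0.005), and was not called without E13 replicate 0 (adjusted p = 0.0867). Gabra3 read 1.95 and 2.02 at E13 and 21.2, 11.9 and 8.31 at P0 (log2 fold change 2.22 ± 0.30, adjusted p = 1.82e-05). In each of these 3, P0 replicate 0 held the highest value and P0 replicate 2 the lowest. The chloride exporter gene Slc12a5, which sets how GABA acts on mature neurons, read 0.175 and 0.25 FPKM at E13 and 7.67, 3.65 and 4.96 FPKM at P0 (log2 fold change 2.36 ± 0.25, adjusted p = 1.41e-06). The chloride importer gene Slc12a2 read 5.38 and 10.4 at E13 and 10.8, 6.65 and 4.54 at P0, overlapped between ages and was not called (adjusted p = 0.81). Of 30 sodium, potassium and calcium channel genes, 25 rose and 1 fell (median 1.51), against 23.7% and 33.4% of all genes tested. They included Scn3b, a sodium channel subunit (log2 fold change 2.75 ± 0.25, adjusted p = 2.97e-07), and Kcnd2, an A-type potassium channel (log2 fold change 2.48 ± 0.23, adjusted p = 4.21e-07). The T-type calcium channel gene Cacna1g was the member called lower, at 7.34 and 5.499 at E13 and 5.96, 3.21 and 2.51 at P0, although its ages overlap. That call was lost at a pseudocount of 0.1, with no filter, on rescaling, with the 5 polysome libraries alone, and without E13 replicate 0, P0 replicate 1 or P0 replicate 2 (adjusted p 0.0506 to 0.254).

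Axon guidance genes showed no common direction. Of 29 guidance receptors 9 rose and 7 fell (median 0.04), and of 22 ligands 6 rose and 8 fell, close to the shares of all genes tested. Only 1 receptor was called higher without E13 replicate 0. Ptk7, a receptor of planar cell polarity, read 47 and 25.8 FPKM at E13 and 8.29, 4.601 and 4.09 FPKM at P0 (log2 fold change -2.48 ± 0.28, adjusted p = 2.88e-06). Unc5b, a netrin receptor, read 7.86 and 3.84 at E13 and 1.71, 0.967 and 0.836 at P0 (log2 fold change -1.61 ± 0.24, adjusted p = 4.28e-05). Plxnb1, a semaphorin receptor, fell (log2 fold change -1.43 ± 0.26, adjusted p = 0.000262). Robo1, a Slit receptor, rose, at 2.23 and 6.92 at E13 and 21.1, 16.1 and 10.1 at P0 (log2 fold change 1.67 ± 0.40, adjusted p = 0.00214), a call lost without E13 replicate 0 (adjusted p = 0.0728). The B-class ephrin ligands moved apart, with Efnb1 at 142 and 112 at E13 and 16.2, 10.9 and 11.6 at P0 (log2 fold change -3.21 ± 0.22, adjusted p = 2.53e-08) and Efnb3 at 19.7 and 18.2 at E13 and 81.4, 59.6 and 48.7 at P0 (log2 fold change 1.66 ± 0.27, adjusted p = 8.56e-05).

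Neuronal layer genes moved mostly upward in the upper-layer list and unevenly in the deep-layer list. Of 15 upper-layer genes 11 were higher and 1 lower (median 1.27), and of 14 deep-layer genes 8 were higher and 2 lower (median 0.73). Among all genes tested 23.7% were higher and 33.4% lower. The difference between the lists was not tested. The lower upper-layer call was lost on rescaling and without either E13 library, P0 replicate 0 or P0 replicate 1. No deep-layer gene was called lower on rescaling or without E13 replicate 1 or P0 replicate 1. Lmo4, a transcriptional cofactor, read 15.9 and 29.5 FPKM at E13 and 206, 279.9 and 241 FPKM at P0 (log2 fold change 3.41 ± 0.26, adjusted p = 6.86e-08). Pou3f1 read 0.582 and 3.94 at E13 and 27.02, 26.2 and 38.3 at P0 (log2 fold change 3.47 ± 0.43, adjusted p = 6.68e-06). Rorb and Cux2 rose to lower levels, at 2.39, 2.81 and 1.72 and 10.1, 5.69 and 8.44 FPKM at P0. Among deep-layer genes, Ldb2 read 9.12 and 7.48 FPKM at E13 and 127, 116 and 84.8 FPKM at P0 (log2 fold change 3.55 ± 0.24, adjusted p = 2.53e-08). Hs3st4 read 0.0873 and 1.06 at E13 and 25.2, 22.1 and 21.8 at P0 (log2 fold change 4.00 ± 0.31, adjusted p = 6.79e-08). The factors that specify deep-layer neurons early did not rise. Fezf2 read 36.9 and 47.5 at E13 and 31.4, 21.7 and 33.6 at P0 (log2 fold change -0.54 ± 0.22, adjusted p = 0.0446), a call lost on rescaling (adjusted p = 0.145), with the 5 polysome libraries alone (0.121), without E13 replicate 1 (0.255) and without P0 replicate 1 (0.187). Tbr1 read 33.6 and 48.4 at E13 and 30.1, 32.7 and 32.7 at P0 (adjusted p = 0.266). Bcl11b read 8.92 and 25.1 at E13 and 20.6, 20.3 and 21.3 at P0 (adjusted p = 0.375, and 0.037 without E13 replicate 1).

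Dorsal forebrain factors that progenitors express fell, with Emx2 at 74.2 and 63.9 at E13 and 5.58, 6.28 and 11.4 at P0, Lhx2 at 222 and 229.9 at E13 and 31.9, 40.7 and 59.7 at P0 and Emx1 at 61.2 and 119 at E13 and 14.7, 13.2 and 32.7 at P0. Neurod2, a factor of excitatory neurons, rose (log2 fold change 1.36 ± 0.40, adjusted p = 0.00844), as did Neurod6 and Bcl11a, though none of the 10 genes of this list was called higher without E13 replicate 0. Neurod6 was also not called without P0 replicate 0 (adjusted p = 0.0692), without P0 replicate 1 (0.0822) or with no filter (0.075). Lhx9 was among the 2 markers of other regions that were tested, and both fell; it read 8.71 and 10.4 at E13 and 0.0836, 0.303 and 1.94 at P0 (log2 fold change -2.71 ± 0.49, adjusted p = 0.000266).

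Markers of other cell types moved with the same contrast, and their counts stand beside 23.7% higher and 33.4% lower among all genes tested. Of 18 interneuron genes, which mark cells that migrate in from the ventral forebrain, 15 rose and 2 fell (median 1.96). On rescaling 15 rose and 1 fell, and 11 rose and 1 fell without P0 replicate 2. Leaving out E13 replicate 0 also gave fewer calls in both directions. Gad1, which makes GABA, read 0.0772 and 0.878 FPKM at E13 and 16.01, 16.8 and 23.9 FPKM at P0 (log2 fold change 3.79 ± 0.34, adjusted p = 2.62e-07). Dlx1 read 0.0604 and 1.59 at E13 and 10.99, 16.7 and 16.6 at P0 (log2 fold change 3.23 ± 0.40, adjusted p = 6.82e-06). Lhx6 read 1.12 and 3.04 at E13 and 21.4, 19.3 and 30.4 at P0 (log2 fold change 3.05 ± 0.40, adjusted p = 1.33e-05). Sox6 fell, at 12.7 and 18.9 at E13 and 5.44, 4.13 and 4.34 at P0; progenitors express it too. Of 8 Cajal-Retzius genes 3 rose (37.5%), including Reln (1.23), and 4 fell (50.0%), including Trp73 (-1.08). With 8 genes no direction of the list is read from these shares. Without E13 replicate 0 only 1 was called higher, and Reln was not (adjusted p = 0.122).

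Of 16 astrocyte genes 10 rose and 2, Aldoc and Gja1, fell, and the list summed to 628.7 and 628.0 FPKM at E13 and 818.5, 593.6 and 685.9 FPKM at P0, which overlap. Of 10 oligodendrocyte lineage genes 9 rose and none fell. For both glial lists the shares of all genes tested were 23.7% higher and 33.4% lower. Olig1, a factor of oligodendrocyte precursors, read 0.315 and 0.171 FPKM at E13 and 24.5, 19.8 and 37.3 FPKM at P0 (log2 fold change 4.46 ± 0.32, adjusted p = 3.36e-08). Sox10 read 0 and 0.0192 at E13 and 3.602, 3.77 and 4.78 at P0 (log2 fold change 2.32 ± 0.21, adjusted p = 3.41e-07). Gfap, the astrocyte filament gene, read 0.0309 and 0.0576 at E13 and 12.4, 18.04 and 37.7 at P0 (log2 fold change 4.36 ± 0.42, adjusted p = 5.06e-07). Aldh1l1 read 0.189 and 0.218 at E13 and 8.64, 8.03 and 14.8 at P0 (log2 fold change 3.21 ± 0.27, adjusted p = 1.73e-07). P0 replicate 2 was highest in all 4. Mag and Mog, of myelin, stayed under the mean of 1 FPKM required for testing.

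Blood and vessel genes fell. All 10 red blood cell genes tested were lower (median -3.78), and their summed FPKM was 9286 and 5352 at E13 and 178.2, 88.47 and 299.4 at P0. Of 12 endothelium and pericyte genes 8 fell and 1 rose. Pecam1 read 11.6 and 5.97 at E13 and 2.04, 1.35 and 1.05 at P0 (log2 fold change -1.94 ± 0.24, adjusted p = 8.06e-06). Slco1c1, a transporter of the blood-brain barrier, read 0.734 and 2.29 at E13 and 13.02, 9.405 and 6.23 at P0 (log2 fold change 2.09 ± 0.33, adjusted p = 6.49e-05). Of 11 microglia genes none was called by limma, and 1 passed an unadjusted p under 0.05; the smallest adjusted p was 0.0739, for Fcer1g at 8.29 and 5.55 at E13 and 4.18, 4.14 and 3.81 at P0, which was called lower without E13 replicate 1 (adjusted p = 0.0486). Of 13 genes of meninges and choroid plexus 6 fell and 1 rose, against 33.4% and 23.7% of all genes tested. The 6 became 2 without E13 replicate 1, 3 without P0 replicate 1 and 3 on rescaling. Ttr, the main choroid plexus product, read 460.3 and 949.7 FPKM at E13 and 31.6, 36.03 and 471 FPKM at P0 and was not called (adjusted p = 0.173). With the 5 polysome libraries alone it was called lower by limma (adjusted p = 0.0274). Of the P0 libraries, replicate 2 alone was as high as an E13 library. How much such differences in cell content contribute to the other lists was not tested.

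**Figure D3:**
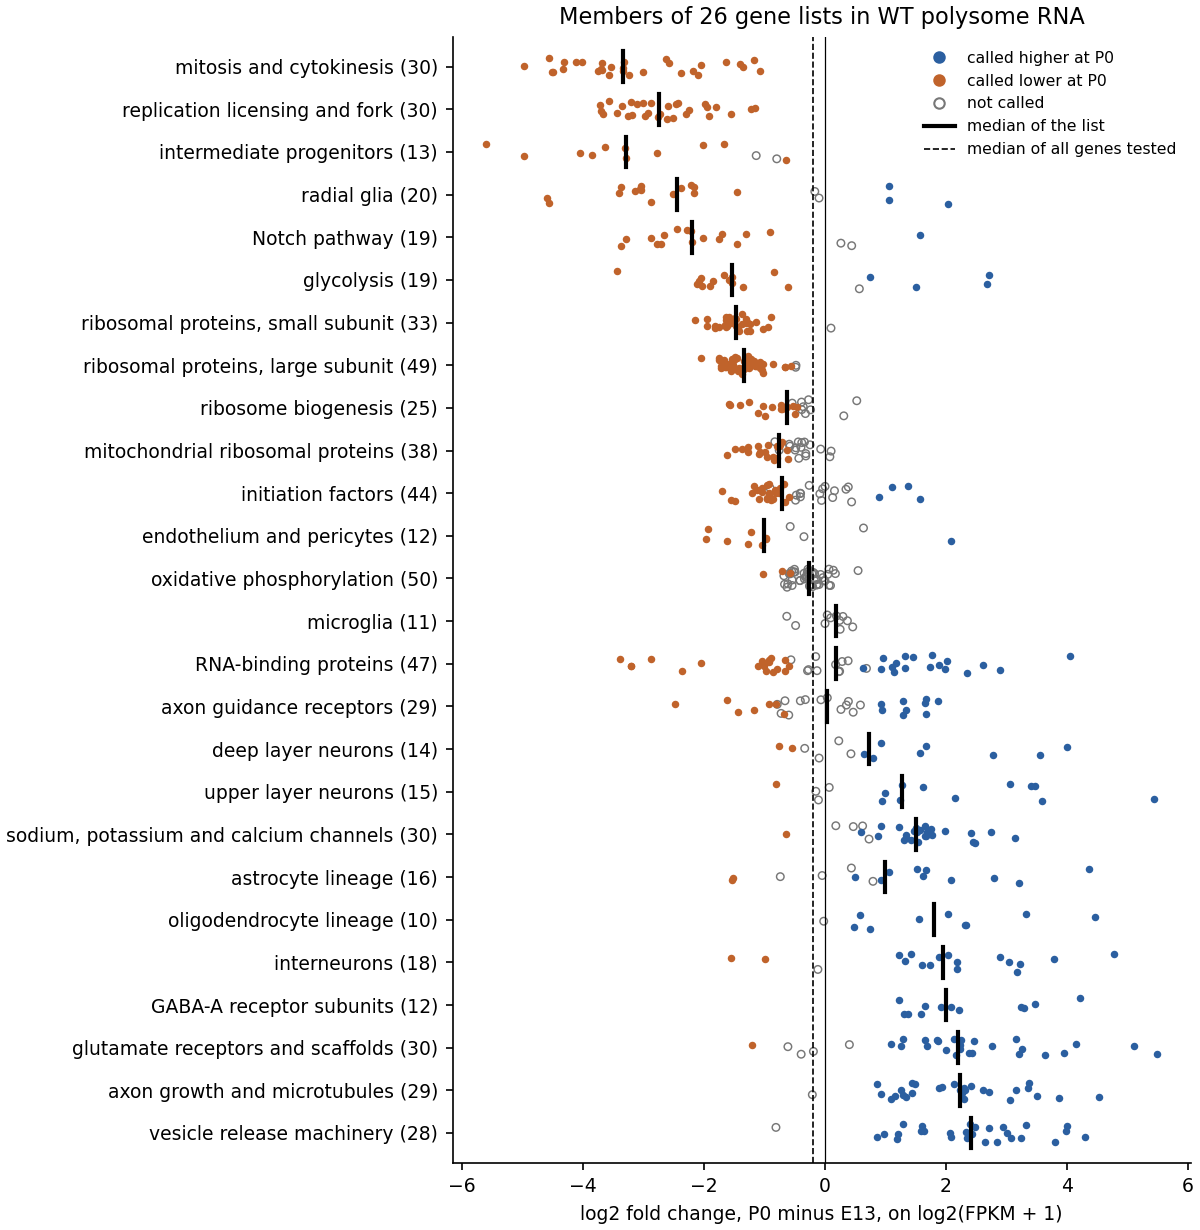
Log2 fold change, P0 minus E13 on log2(FPKM + 1), of each tested member of 26 gene lists, with colours for called higher, called lower and not called, a thick line at each list's median and a dashed line at the median of all genes, -0.19. The lists run from mitosis and intermediate progenitors, with medians of -3.34 and -3.29, to vesicle release and axon growth, with medians of 2.41 and 2.23.

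Ribosomal protein mRNAs were lower in polysomes at birth. Of 49 large-subunit genes 47 fell (median -1.34), and of 33 small-subunit genes 32 fell (median -1.48), against 33.4% of all genes tested. Large-subunit mRNAs summed to 69790 and 35250 FPKM at E13 and 16420, 19880 and 24110 FPKM at P0. Small-subunit mRNAs summed to 54090 and 25040 at E13 and 10740, 13550 and 16090 at P0. Every P0 sum lay below both E13 sums, and the E13 sums were far apart, with replicate 0 the higher. Without E13 replicate 0, 27 large-subunit and 21 small-subunit genes were called lower. Ribosomal protein genes have many processed pseudogenes, so the authors' assignment of their reads is uncertain.

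Rpl18 read 1859 and 1167 FPKM at E13 and 401, 389.5 and 630.5 FPKM at P0 (log2 fold change -1.67 ± 0.29, adjusted p = 0.000165). Rpl12 read 872 and 583 at E13 and 170.5, 193 and 289.8 at P0 (log2 fold change -1.75 ± 0.29, adjusted p = 0.000122). Rps26 read 1207 and 807 at E13 and 162, 185 and 360.5 at P0 (log2 fold change -2.15 ± 0.37, adjusted p = 0.000166). Rpl22l1, a paralogue of Rpl22, had the smallest adjusted p of the large subunit, at 458 and 215 at E13 and 60.2, 85.03 and 83.98 at P0 (log2 fold change -2.04 ± 0.31, adjusted p = 5.01e-05). Rpl22 itself was not called, at 231 and 109.7 at E13 and 88.02, 135 and 123 at P0 (adjusted p = 0.172), nor was Rpl38, at 1723 and 684 at E13 and 508, 945 and 984 at P0 (adjusted p = 0.28). Both were called lower without E13 replicate 1 (adjusted p = 0.00798 and 0.0113). Rps27 ranged from 248 and 0.469 FPKM within E13 and read 52.9, 50.3 and 2.11 at P0, a spread that leaves its difference undetermined. Without E13 replicate 0 it was called higher (adjusted p = 0.0178).

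Ribosomal protein mRNAs are known for a terminal oligopyrimidine (TOP) start, a C followed by a run of pyrimidines that couples their translation to growth signals. A start was counted as TOP where a C followed by at least 4 pyrimidines began within 5 bases of the RefSeq start on the gene's strand. That held for 19 of 42 large-subunit promoters (45.2%), 13 of 30 small-subunit promoters (43.3%), 8 of 43 promoters of initiation factors (18.6%), 19.4% of promoters of genes tested and 18.3% of all. The annotated start can differ from the one used in cortex. The 25 bases around the start of 5 genes that fell are printed with the run in capitals, for Rpl18 (chr7:45718066-45718090, plus strand), Rpl12 (chr2:32961707-32961731, plus strand), Rpl22l1 (chr3:28805503-28805527, plus strand), Rps26 (chr10:128626487-128626511, minus strand) and Rps10 (chr17:27635225-27635249, minus strand) on GRCm38.p6.
Rpl18: aggccgCTCTTTCCCCgcccactcc
Rpl12: gatccgtCTTTTCggctttcggctc
Rpl22l1: agcccgttCTCTTCCCacggctgca
Rps26: ccgccggatCCTCTTTCgagtcttg
Rps10: cgCCCCTTCCTTTCCagcctccgcc
Rps10 read 2005 and 866 FPKM at E13 and 323, 368 and 432 FPKM at P0 (log2 fold change -1.82 ± 0.32, adjusted p = 0.00021).

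**Figure D4:**
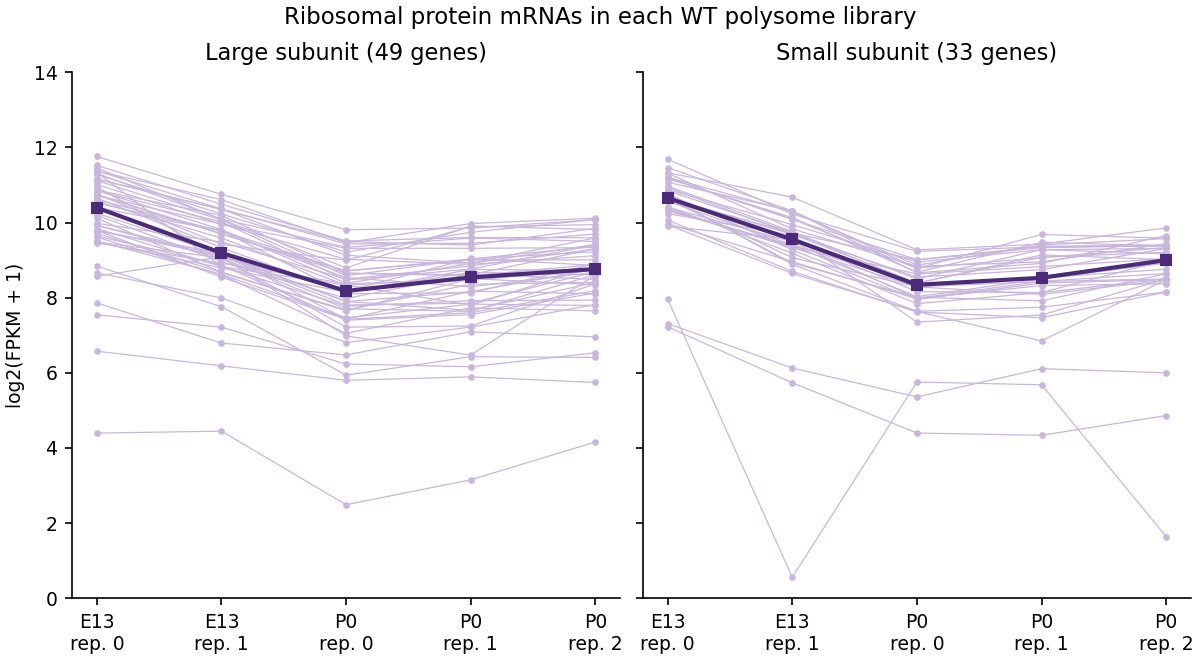
Log2(FPKM + 1) of each ribosomal protein gene in the 5 polysome libraries, with thin lines joining the values of a gene and a thick line at the median, large subunit (49 genes) and small subunit (33 genes) in separate panels. E13 replicate 0 is highest for 47 of 49 and 33 of 33 genes when the E13 pair is compared, and all P0 libraries lie below both E13 libraries for 45 of 49 and 32 of 33 genes.

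Counts for other parts of the translation machinery rested on E13 replicate 0. Of 44 initiation factor genes 24 fell and 4 rose (median -0.71), of 38 mitochondrial ribosomal protein genes 21 fell, and of 25 ribosome biogenesis genes 16 fell. With every library 33.4% of all genes tested fell and 23.7% rose. Without that library 9, 9 and 8 were lower, shares near the 24.7% of all genes called lower in that setting. Rescaling left 6 ribosome biogenesis genes lower, leaving out P0 replicate 2 left 8, and leaving out P0 replicate 0 left 13 mitochondrial ribosomal protein genes. Eif3i, a subunit of the scaffold that recruits the small ribosomal subunit, read 544 and 324 FPKM at E13 and 144, 128 and 159 FPKM at P0 (log2 fold change -1.55 ± 0.24, adjusted p = 5.87e-05). The nucleolar protein gene Npm1 read 1616 and 1058 at E13 and 452, 451 and 402 at P0 (log2 fold change -1.59 ± 0.25, adjusted p = 7.17e-05). Fbl, which methylates ribosomal RNA, fell (log2 fold change -1.41 ± 0.24, adjusted p = 0.000171), as did Mrpl24 (log2 fold change -1.62 ± 0.23, adjusted p = 2.53e-05). Eif4a2, an RNA helicase of the cap-binding complex, rose instead, at 84.02 and 93.7 at E13 and 295, 260.1 and 248 at P0 (log2 fold change 1.58 ± 0.28, adjusted p = 0.000184), and so did the scaffold gene Eif4g3 (log2 fold change 1.38 ± 0.26, adjusted p = 0.000384).

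The 2 forms of elongation factor 1A, which bring aminoacyl-tRNA to the ribosome, moved in opposite directions. Eef1a1, the general form, read 5713 and 4309 FPKM at E13 and 2447, 2578 and 2251 FPKM at P0 (log2 fold change -1.03 ± 0.26, adjusted p = 0.00343). Eef1a2, the form of mature neurons and muscle, read 3.87 and 9.15 at E13 and 83.5, 56.97 and 73.1 at P0 (log2 fold change 3.34 ± 0.48, adjusted p = 3.34e-05). Eef1d, of the exchange complex, read 401 and 165 at E13 and 68.9, 68.6 and 66.7 at P0 (log2 fold change -1.91 ± 0.28, adjusted p = 4.18e-05). Eef2, the translocase, was not called (adjusted p = 0.0986), and the kinase gene Eef2k that restrains it rose from 20.6 and 16.2 to 27.6, 25.8 and 26.2 FPKM (log2 fold change 0.51 ± 0.19, adjusted p = 0.0275). The Eef2k call was lost without E13 replicate 1 (adjusted p = 0.189), without P0 replicate 0 (0.0663) and with the 5 polysome libraries alone (0.0967).

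Because short reading frames hold fewer ribosomes, genes other than ribosomal protein genes were also divided by coding length. In the classes of up to 150, up to 300, up to 600 and over 600 residues, the median polysome log2 fold changes were -0.25, -0.25, -0.28 and -0.07. The same classes in monosome RNA had medians of -0.83, -0.55, -0.31 and -0.02. The age difference in polysomes thus varied less with length than that in the monosome pool. Ribosomal proteins themselves ran from 46 to 419 residues.

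Of 47 genes of RNA-binding proteins that regulate splicing and translation, 18 were higher (38.3%) and 18 lower (38.3%). Of all genes tested 23.7% were higher and 33.4% lower, so the lower share of the list was near that of all genes. Elavl1, which encodes HuR, read 60.6 and 42.4 FPKM at E13 and 21.5, 26.2 and 21.8 FPKM at P0 (log2 fold change -1.10 ± 0.34, adjusted p = 0.0119), so both E13 libraries lay above all P0 libraries. Without E13 replicate 0 the adjusted p of Elavl1 was 0.129. The neuronal relatives behaved differently from one another. Elavl3 read 10.5 and 40.4 at E13 and 139, 131 and 126 at P0 (log2 fold change 2.61 ± 0.37, adjusted p = 2.82e-05). Elavl2 read 16.3 and 55.8 at E13 and 49.5, 57.9 and 42.1 at P0 (adjusted p = 0.128). Elavl4 read 13.5 and 31.99 at E13 and 29.4, 33.5 and 21.2 at P0 (adjusted p = 0.292). For Elavl2 and Elavl4 the direction of the difference turned without E13 replicate 0, which held the lowest value of both. Both were called higher without E13 replicate 1 (adjusted p = 0.000801 for Elavl2 and 0.0117 for Elavl4).

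Ptbp1, the splicing repressor of progenitors, read 256 and 165 FPKM at E13 and 15.3, 15.96 and 26.8 FPKM at P0 (log2 fold change -3.39 ± 0.25, adjusted p = 4.41e-08). Ptbp2, its form in young neurons, fell too, at 131 and 116 at E13 and 50.9, 78.4 and 58.9 at P0 (log2 fold change -0.98 ± 0.27, adjusted p = 0.00546). Msi1, a translational regulator of neural stem cells, read 125 and 121 FPKM at E13 and 14.1, 13.4 and 21.1 FPKM at P0 (log2 fold change -2.88 ± 0.20, adjusted p = 2.93e-08). All 3 genes of the fetal family that shields mRNAs in the cytoplasm fell. Igf2bp1 read 17.9 and 10.2 at E13 and 0.701, 0.486 and 0.527 at P0 (log2 fold change -3.21 ± 0.22, adjusted p = 2.34e-08). Igf2bp2 read 31.3 and 40.1 at E13 and 2.95, 2.65 and 3.23 at P0 (log2 fold change -3.21 ± 0.31, adjusted p = 5.06e-07). Igf2bp3 read 18.5 and 19.9 at E13 and 4.17, 3.73 and 3.71 at P0 (log2 fold change -2.05 ± 0.19, adjusted p = 3.08e-07). All 3 Rbfox genes, which encode neuronal splicing factors, rose. Rbfox1 read 1.15 and 5.38 at E13 and 54.3, 67.7 and 60.9 at P0 (log2 fold change 4.06 ± 0.45, adjusted p = 2.34e-06). Rbfox2 read 36.9 and 57.5 at E13 and 134, 104 and 115 at P0. Rbfox3, which encodes the NeuN antigen, read 7.09 and 19.3 at E13 and 41.6, 33.8 and 50.95 at P0. Of the CELF family, Celf1 fell (log2 fold change -0.93 ± 0.29, adjusted p = 0.0132) and the other 5 rose, from Celf3 with a log2 fold change of 1.32 ± 0.32 and Celf2 of 1.46 ± 0.29 through Celf6 of 2.01 ± 0.23 and Celf5 of 2.36 ± 0.29 to Celf4 of 2.90 ± 0.39. Celf1 and Celf3 were not called without E13 replicate 0 (adjusted p = 0.11 and 0.0832). Cpeb2, a regulator of polyadenylation and translation, read 0.98 and 1.43 at E13 and 7.23, 8.86 and 7.06 at P0 (log2 fold change 1.99 ± 0.21, adjusted p = 1.52e-06). Of 26 textbook targets of HuR 2 rose, Myc and Gap43, and 9 fell, shares of members near or below those of all genes tested.

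Paralogous subunits of the BAF chromatin remodeler also moved in opposite directions. Actl6a, which encodes the progenitor subunit BAF53a, read 187 and 121 FPKM at E13 and 12.9, 15.2 and 15.8 FPKM at P0 (log2 fold change -3.28 ± 0.38, adjusted p = 3.31e-06). Actl6b, for the neuronal BAF53b, read 8.59 and 21.1 at E13 and 119.9, 95.1 and 123 at P0 (log2 fold change 2.96 ± 0.33, adjusted p = 2.9e-06). Ss18 fell to 13.2, 12.2 and 14.98 FPKM from 35.9 and 41.7 (log2 fold change -1.46 ± 0.19, adjusted p = 1.23e-05). Its neuronal counterpart Ss18l1 read 5.51 and 10.8 at E13 and 42.3, 42.5 and 35.1 at P0 (log2 fold change 2.22 ± 0.28, adjusted p = 7.34e-06). Over the whole list 5 of 18 BAF genes rose and 4 fell, shares of members near or below those of all genes tested (23.7% and 33.4%). Of 32 genes of Polycomb, DNA methylation and chromatin architecture 16 fell (50.0%) and 3 rose (9.38%), against 33.4% and 23.7% of all genes tested. Uhrf1, which maintains DNA methylation after replication, read 65.97 and 53.1 at E13 and 2.51, 1.95 and 3.85 at P0 (log2 fold change -4.03 ± 0.25, adjusted p = 1.21e-08). Cbx2, a Polycomb reader, read 52.4 and 31.7 at E13 and 1.67, 2.72 and 2.33 at P0 (log2 fold change -3.70 ± 0.28, adjusted p = 5.03e-08). The Polycomb methyltransferase gene Ezh2 read 113 and 112 at E13 and 24.7, 29.2 and 24.2 at P0 (log2 fold change -2.07 ± 0.23, adjusted p = 2.15e-06). Its paralogue of non-dividing cells Ezh1 read 3.09 and 2.74 at E13 and 7.12, 6.87 and 6.17 at P0 (log2 fold change 0.98 ± 0.20, adjusted p = 0.000577).

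Glycolysis mRNAs fell in 14 of 19 members and rose in 4 (median -1.54), and 10 were lower without E13 replicate 0. Slc2a1, which carries glucose into cells and across the blood-brain barrier, read 81.9 and 43.7 FPKM at E13 and 5.67, 4.02 and 4.29 FPKM at P0 (log2 fold change -3.44 ± 0.25, adjusted p = 4.4e-08). Pkm2, the pyruvate kinase gene as named in the table, read 1571 and 1043 at E13 and 321, 226 and 355 at P0 (log2 fold change -2.11 ± 0.27, adjusted p = 1.03e-05). Hexokinase genes crossed over, with Hk2 at 5.599 and 5.56 at E13 and 0.539, 0.274 and 0.902 at P0 (log2 fold change -2.08 ± 0.20, adjusted p = 5.04e-07) and Hk1 at 7.05 and 9.99 at E13 and 63.6, 51.3 and 64.1 at P0 (log2 fold change 2.68 ± 0.21, adjusted p = 8.96e-08). The neuronal enolase gene Eno2 rose (log2 fold change 2.71 ± 0.31, adjusted p = 3.41e-06), as did the phosphofructokinase genes Pfkp and Pfkm (log2 fold change 0.74 ± 0.20, adjusted p = 0.00587). Of 50 oxidative phosphorylation genes 3 fell and none rose, under the share of all genes tested. The 3 became 0 without E13 replicate 0, 12 without E13 replicate 1 and 6 without P0 replicate 2. The proteasome list had 11 of 31 lower (35.5%) and 1 higher, near or below the shares of all genes tested (33.4% and 23.7%). How many were called lower depended strongly on which E13 library was left out. The higher call was lost without E13 replicate 0, P0 replicate 0 or P0 replicate 1. Of 22 cholesterol synthesis genes 3 rose and 3 fell, under the shares of all genes tested. Only 1 was called higher without E13 replicate 1, P0 replicate 0 or P0 replicate 2, and 5 were called lower without E13 replicate 1 or P0 replicate 0. Of 12 immediate early and stress genes tested 2 rose (16.7%) and 4 fell (33.3%), near or below the shares of all genes tested (23.7% and 33.4%). Egr1 was higher (2.14 ± 0.30) and Jun lower (-1.90 ± 0.28).

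The 12 genes with the largest increases follow. Nts, which encodes neurotensin, read 1.41 and 0.097 FPKM at E13 and 144, 126 and 73.7 FPKM at P0 (log2 fold change 6.10 ± 0.48, adjusted p = 7.29e-08). Sla, a Src-like adaptor, read 1.37 and 4.42 at E13 and 204, 198 and 139 at P0 (log2 fold change 5.64 ± 0.34, adjusted p = 9.56e-09). Mef2c, a factor of excitatory neurons, read 1.13 and 5.59 at E13 and 201, 194 and 109 at P0 (log2 fold change 5.44 ± 0.41, adjusted p = 5.85e-08). Nrgn, a calmodulin-binding protein of dendrites, read 1.83 and 1.003 at E13 and 76.6, 89.5 and 176 at P0 (log2 fold change 5.50 ± 0.39, adjusted p = 3.52e-08). Ptgds, a prostaglandin synthase of the meninges, read 7.98 and 2.32 at E13 and 497, 192 and 168 at P0 (log2 fold change 5.53 ± 0.67, adjusted p = 6.06e-06), with P0 replicate 0 more than 2-fold over the others. Vsnl1, a calcium sensor, Camk2b, the beta subunit of the synaptic kinase CaMKII, Dync1i1, a dynein chain, and Ptk2b, a calcium-dependent kinase, rose by log2 fold changes of 5.18 ± 0.24, 5.11 ± 0.36, 5.06 ± 0.38 and 4.82 ± 0.24. The neuropeptide genes Cck and Npy read 0 and 2.29 at E13 and 38.8, 51.6 and 60.4 at P0 and 1.696 and 2.500 at E13 and 89.9, 80.95 and 80.02 at P0, and Fabp3, a fatty acid binding protein, 3.54 and 1.99 at E13 and 72.1, 92.2 and 94.5 at P0.

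The largest decreases were in embryonic globins. Hbb-y read 6562 and 2083 FPKM at E13 and 0.338, 0 and 0.177 FPKM at P0 (log2 fold change -11.63 ± 0.41, adjusted p = 1.29e-10). Hba-x read 1305 and 229 at E13 and 0.174, 0 and 0 at P0 (log2 fold change -9.02 ± 0.48, adjusted p = 3.47e-09). Hbb-bh1 was listed at 0 in every P0 polysome library after 195 and 14.8 FPKM at E13. The adult gene Hba-a1 varied within both ages, at 528 and 1228 at E13 and 0.0488, 12.5 and 78.6 at P0 (log2 fold change -6.28 ± 1.24, adjusted p = 0.000526). Near-identical globin copies make the split between them uncertain. After the globins and Neurog2 came Ube2c, Nhlh1, a factor of newborn neurons (log2 fold change -4.97 ± 0.42, adjusted p = 1.39e-07), and Hmga2, a chromatin protein of early progenitors, at 65.1 and 12.8 at E13 and 0.144, 0.0631 and 0.109 at P0 (log2 fold change -4.77 ± 0.63, adjusted p = 1.4e-05). Sox3 and Id4, of progenitors, had log2 fold changes of -4.59 ± 0.29 and -4.56 ± 0.32. Ccnb1, which drives entry into mitosis, and Tk1, of thymidine supply, had log2 fold changes of -4.57 ± 0.35 and -4.52 ± 0.33.

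The age difference in polysome RNA was then set against that in total RNA, to ask where polysomes departed from the RNA the tissue holds. Total lysate RNA includes the polysome RNA, so a part was set against its whole, which can make a departure look smaller. Total RNA had 6339 genes called (52.3%). The age difference itself departed between the fractions for 1 of 12123 genes (0.00825%) by limma. At an unadjusted p under 0.05 there were 466, fewer than that threshold would pass on average if no gene departed. The gene called was Snora65, a small RNA outside the naming rule, which is named after its values were seen and was listed at 0 in every polysome library. Msi1 came next. Its total RNA read 83.1 and 80.8 at E13 and 35.9, 37.97 and 42.1 at P0, a log2 fold change of -1.07 against -2.88 in polysomes, a difference of -1.81 (adjusted p = 0.0720). Ribosomal protein lists had total RNA medians of -0.82 and -0.90 for the large and small subunit. No member was called for the difference by limma, and median differences were -0.54 and -0.56, where all genes had -0.09. In these lists E13 polysome replicate 0 lay above replicate 1 by median log2 differences of 0.972 and 1.12, more than those differences between fractions. How far the latter rest on that library was not tested. An unadjusted p under 0.05 by limma held for 2 of 49 large-subunit and 1 of 33 small-subunit genes, each more negative in polysomes. That share was near the one of all genes (466 of 12123). In mitosis the total and polysome medians were both -3.34, and in vesicle release they were 2.42 and 2.41.

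**Figure D5:**
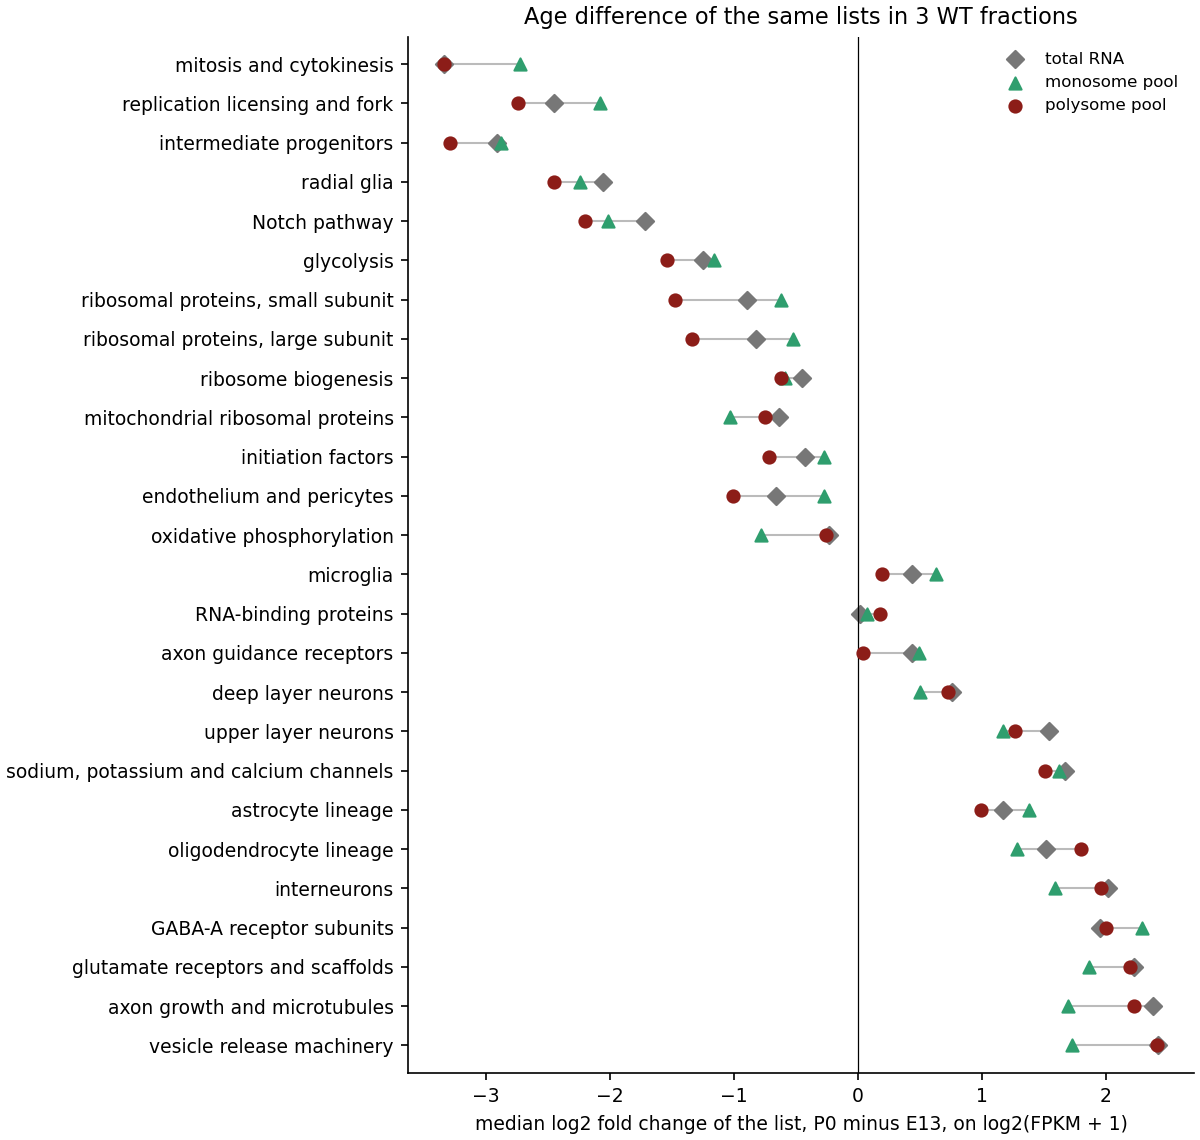
Median log2 fold change of gene lists, P0 minus E13 on log2(FPKM + 1), in total RNA (diamonds), monosome RNA (triangles) and polysome RNA (circles) of WT cortex. The order of the lists differs between fractions. Polysome medians lie farther from 0 than monosome medians for mitosis (-3.34 and -2.73), vesicle release (2.41 and 1.73) and both ribosomal protein lists (-1.34 and -0.52, -1.48 and -0.62).

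The monosome pool, fractions 4 to 7 with ribosomal subunits and single ribosomes, shares no fraction with the polysome pool. More genes were called against it than against total RNA, a comparison of another kind. In monosome RNA 6807 genes were called for age (56.1%), 2478 higher (20.4%) and 4329 lower (35.7%). The age difference departed from that in polysomes for 513 genes (4.23%), with a more positive change in polysomes for 366 (3.02%) and a more negative one for 147 (1.21%). The count depended on single libraries: it was 112 without E13 polysome replicate 0, 1124 without E13 replicate 1, 222 without P0 replicate 1 and 193 without P0 replicate 2.

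Genes with a more positive age difference in polysomes than in monosomes included members of the release machinery. Of the 28 vesicle release genes, 7 were called. Vamp2 read 58.9 and 55.9 at E13 and 161, 132 and 137 at P0 in monosomes, a log2 fold change of 1.30 against 3.32 in polysomes (difference 2.02 ± 0.39, adjusted p = 0.015). Basp1, a growth cone protein, rose in polysomes, at 119 and 251 at E13 and 733, 888 and 955 at P0, and read 293 and 245 at E13 and 221, 218 and 176 at P0 in monosomes without passing the test there (difference 2.69 ± 0.39, adjusted p = 0.00343). Marcksl1, a relative of Marcks, fell in monosomes, at 2061 and 1218 at E13 and 504, 409.9 and 491 at P0, and rose in polysomes, at 558 and 784 at E13 and 877, 989 and 1423 at P0 (difference 2.46 ± 0.40, adjusted p = 0.00672). Its call in polysomes was lost with no filter, with the 5 polysome libraries alone, and without E13 replicate 0, P0 replicate 1 or P0 replicate 2 (adjusted p 0.0657 to 0.287). Vsnl1 read 1.27 and 0.177 at E13 and 11, 10.8 and 12.2 at P0 in monosomes, where it rose by 2.91, less than in polysomes. Lmo4, Stx1a, Napb, Prrt2, Nrgn, Ptk2b and Mlf2 were called in the same direction. Eef1a1 was listed at 0 in all 3 P0 monosome libraries while total RNA read 6658 and 6884 at E13 and 7038, 5806 and 6710 at P0, so its value there can be a failed estimate and its difference is not read.

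Genes with a more negative age difference in polysomes than in monosomes included progenitor regulators. Msi1 read 168 and 173 at E13 and 96.2, 103 and 92.4 at P0 in monosomes, a log2 fold change of -0.81 (difference -2.07 ± 0.28, adjusted p = 0.0027). The FPKM of Msi1 at P0 was thus higher in monosome than in polysome libraries, and at E13 the values were closer. FPKM is relative to the content of a library, so it does not give the amount of Msi1 mRNA in either pool. Ptbp1 read 54.1 and 62.8 at E13 and 15.9, 19.4 and 18.3 at P0 in monosomes (difference -1.73 ± 0.35, adjusted p = 0.019). Slc2a1 read 13.5 and 18.6 at E13 and 3.61, 3.85 and 4.896 at P0 (difference -1.71 ± 0.36, adjusted p = 0.0208). Plk1 and Cdc6 were among 3 mitosis and 6 replication genes called in that direction. Zc3h7b, an RNA-binding protein gene, rose in monosomes, at 65.4 and 71.6 at E13 and 184, 170.3 and 168 at P0, and read 53.5 and 45.4 at E13 and 31.4, 24.7 and 30.2 at P0 in polysomes (difference -2.09 ± 0.26, adjusted p = 0.00142). Adss, of purine synthesis, and the syntaxin gene Stx3 also rose in monosomes, with Adss at 28.4 and 35.6 at E13 and 106, 147 and 129 at P0 and Stx3 at 2.87 and 1.95 at E13 and 11.7, 29.3 and 22.4 at P0. In polysomes Adss read 57.1 and 45.01 at E13 and 41.5, 38.4 and 44.6 at P0 and Stx3 6.73 and 3.44 at E13 and 3.38, 6.51 and 6.94 at P0.

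Gene-level values of the targeted gene can include reads of undeleted exons, so they cannot settle the label cKO. That gene was read first in the libraries labelled cKO. Elavl1 in their polysome RNA was 28.3, 29.9 and 30 at E13 and 15.99, 19 and 22.6 at P0, in FPKM, against 60.6 and 42.4 at E13 and 21.5, 26.2 and 21.8 at P0 in WT. None of the libraries labelled cKO lacked it, and at P0 the ranges overlap. In total RNA it read 55.4 and 42.5 at E13 and 17.8, 25.1 and 28.5 at P0 in libraries labelled cKO, against 28.5 and 39.5 at E13 and 13.5, 15.2 and 15.2 at P0 in WT. The 2 genotypes stand in separate tables, so a level set across them can reflect scaling, and only age differences taken within a table were tested against each other.

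In libraries labelled cKO, 7364 of 12233 genes were called for age in polysomes (60.2%). The age difference departed from that of WT for 80 genes (0.654%), 17 (0.139%) more positive in WT and 63 (0.515%) more negative. Without WT E13 replicate 1 the count was 2, without WT E13 replicate 0 262, and without cKO column c1 at E13 948; at a pseudocount of 0.1 it was 11. The median difference over all genes was -0.23, and rescaling left 28 genes. Neurod2 rose in both, by 1.36 in WT and 3.61 in libraries labelled cKO, where it read 9.26, 9.03 and 14.9 at E13 and 154, 145 and 132 at P0 (difference -2.25 ± 0.47, adjusted p = 0.0272). Neurod6 read 97.96 and 318 at E13 and 444, 469.6 and 365 at P0 in WT and 23.1, 25.7 and 26.99 at E13 and 566, 447 and 453 at P0 in libraries labelled cKO (difference -2.96 ± 0.54, adjusted p = 0.0155). Eomes had a log2 fold change of -3.64 in WT and of -1.02 in libraries labelled cKO, at 17.2, 26.8 and 31.7 at E13 and 11.6, 11.04 and 12.2 at P0 (difference -2.63 ± 0.51, adjusted p = 0.0193). Neurog2 read 53.1, 94.6 and 88.6 at E13 and 4.996, 5.18 and 5.77 at P0 there and fell less than in WT (difference -1.98 ± 0.40, adjusted p = 0.0239). Hbb-bh1 and Hba-x, of embryonic red blood cells, and Slc4a1, their anion exchanger, were among the 17.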

How the data were processed

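Poly(A) RNA of WT and cKO neocortex was sequenced from total lysate and from gradient pools, with an unstranded TruSeq kit and paired reads of 100 bases, per the labels' protocols. The deposited values are FPKM per gene and library, made by the authors with TopHat2 2.0.6, Bowtie2 2.0.5.0 and Cuffdiff on mm10 (GRCm38), per the submitters' processing notes. No source used here gives the version of Cuffdiff, the annotation, or how libraries were scaled. The tables list 23284 genes, of which 26 with dates or bare numbers as names were left out. WT columns carry the sample titles' replicate numbers. The cKO columns were assigned to their group only and are called c0, c1 and c2.

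No counts are given, so depth is unknown and no counting interval can be had. The commonest ratio of low values between polysome libraries was shared by only 71 to 350 of 1370 to 2545 genes, so whole fragments were not recovered.

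Tests used limma 3.58.1 (R 4.3.3; moderated, two-sided, with an intensity trend) on log2(FPKM + 1) of genes with a mean of at least 1 FPKM. A fit of the 15 WT libraries in 6 groups has 9 residual degrees of freedom, and a fit of all 31 libraries, used for the cKO comparison, has 19. Both count libraries as independent, although same-numbered WT libraries of an age shared deviations across fractions, as given below. The 5 polysome libraries alone gave 5823 calls in the main comparison, against 6918. P-values were adjusted by Benjamini-Hochberg over all genes tested. On data simulated for the P0 against E13 polysome comparison, 58 of 100 genes changed by a log2 fold of 1 and 98 of 100 changed by 2 were recovered, none with the wrong sign, with 5 false calls among 12123 genes. The changed genes were drawn from those with at least 5 FPKM in E13 polysomes, and noise was independent between genes and libraries. Far fewer genes changed than were called in the data, so these counts do not give the error rate of the real comparison.

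Genes were named by rule: in the main comparison the 12 called genes per direction that changed most, with at least 5 FPKM in the higher group and no overlap; up to 8 per direction in each difference of age effects; up to 6 members of a list by adjusted p, or all members of a small family. Some genes that the rule takes in are not reported here. Predicted, small RNA and pseudogene names were left out of the first sets. Further genes, among them most whose promoters are printed, Nes, Vim, Birc5, Neurod6 as a rising gene and members singled out as not called, were chosen after their values were seen. The members and gene lists were chosen with earlier results of these data known. Of 1010 list entries 994 matched a table symbol, 13 a synonym and 3 none. Promoters are RefSeq sequences of GRCm38.p6. Coding lengths came from the GENCODE annotation given with the reference instead of RefSeq proteins, and 96.3% of the genes tested had a length.

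Replicate numbers were checked as pairs by the correlation of deviations from group means. Monosome and polysome libraries of an age with the same number correlated at 0.207 to 0.411, which pairs them. At P0, polysome and total libraries correlated at 0.502 to 0.734, and at E13 at -0.538. Polysome libraries of the same number at the 2 ages correlated at -0.197 and -0.0365, so the main comparison is unpaired. Alternatives tried were other pseudocounts and filters, rescaling, no trend, blocks, the 5 polysome libraries alone, a fold threshold, and leaving out each library.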

Additional observations from a re-analysis of the deposited data

Results flagged for a closer look

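Age differences in WT polysomes that departed, by the limma test of the difference itself, from those in another fraction or in libraries labelled cKO numbered 1 against total RNA, 513 against monosome RNA and 80 against cKO polysome RNA.

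Against monosomes, the age difference in polysomes was more positive for Eef1a1 (12.97, with P0 monosome values listed at 0), Basp1 (2.69), Nrgn (2.65), Ptk2b (2.49), Prrt2 (2.47), Marcksl1 (2.46), Mlf2 (2.28), Vsnl1 (2.27), Vamp2 (2.02), Lmo4 (1.82), Stx1a (1.42) and Napb (1.33), all on the log2 scale. It was more negative for Bgn (-2.70), Stx3 (-2.50), Alas2 (-2.24), Adss (-2.24), Skp2 (-2.16), Zc3h7b (-2.09), Msi1 (-2.07), Zik1 (-2.04), Ptbp1 (-1.73), Slc2a1 (-1.71), Plk1 (-1.46) and Cdc6 (-1.45). Bgn encodes a matrix protein, Alas2 the heme synthesis enzyme of red blood cells, and Skp2 a ubiquitin ligase subunit of the cell cycle.

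Against libraries labelled cKO, the WT age difference was more positive for the red blood cell genes Hbb-bh1 (4.81), Hba-x (3.25), Slc4a1 (1.92) and Slc25a37 (1.69), for Car2 (1.74), carbonic anhydrase, and for Hsd3b6 (2.15), Tmem163 (1.86) and Cyb561 (1.38). Hbb-bh1 varied widely within groups, with 195 and 14.8 FPKM in WT polysomes at E13 and 4786, 1463 and 736 at E13 and 0, 0 and 0.356 at P0 in libraries labelled cKO. The WT age difference was more negative than that in libraries labelled cKO for Aldoc (-3.49), Sez6 (-3.25), Tiam2 (-3.07), Neurod6 (-2.96), Ndrg2 (-2.94), Eomes (-2.63), Lmo1 (-2.54), Nfix (-2.48), Neurod2 (-2.25) and Neurog2 (-1.98). Aldoc read 304 and 308 at E13 and 87.8, 93.04 and 142 at P0 in WT and 19.6, 58.4 and 69.97 at E13 and 163, 179.9 and 170.2 at P0 in libraries labelled cKO. Nfix read 74.1 and 153 at E13 and 235, 160.1 and 258 at P0 in WT and 22.7, 31.98 and 28.1 at E13 and 382, 257 and 314 at P0 in libraries labelled cKO.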

How the results depend on the processing

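In the main comparison, pseudocounts of 0.1 and 0.5, both other filters, rescaling, no trend and the 5 polysome libraries alone gave 4850 to 7830 genes called, and leaving out each library 5241 to 6772, against 6918. Requiring a log2 fold change of at least 1 left 4411, of which 2489 were lower. With replicate numbers as a block the count was 7047. Leaving out a library of a group of 2 leaves a lone sample that is assumed to vary like the other groups.

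For polysome against total RNA (1 gene), no filter gave 3 (2 higher, 1 lower), and leaving out libraries 1 to 2, with 1 to 2 higher and 0 to 1 lower. For polysome against monosome RNA (513), a pseudocount of 0.1 gave 306 (231 higher, 75 lower), a mean of at least 5 FPKM 95 lower, and leaving out libraries 112 to 1124 (81 to 591 higher, 31 to 533 lower). For WT against cKO (80), a pseudocount of 0.1 gave 11 (0 higher, 11 lower), a mean of at least 5 FPKM 7 higher, no filter 35 (9 higher, 26 lower), rescaling 28 (13 lower), and leaving out libraries 2 to 948 (0 to 55 higher, 2 to 893 lower). The cause was not tested.

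The monosome and polysome pairs of an age as a block gave 582 calls instead of 513, and a block across ages 620. In the main comparison the block across ages ended the calls of Fezf2 (-0.55), Cacna1g (-0.55) and Marcksl1 (0.59) and added those of Ttr (-4.66) and Fcer1g (-0.70). It changed no other call among the named genes it was run on. The E13 total numbers correlated negatively with the other fractions, and crossing them, a choice made after seeing the data, gave 3 calls against total RNA (2 higher, 1 lower) in place of 1. No paired analysis was possible for WT against cKO because the cKO columns carry no title number.

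Genes whose direction turned, none of them called with every library, were Slc12a2 (0.0443 rescaled, 0.0451 with the block, -0.52 to 0.32 without a library), and, without a library, Elavl2 (-0.17 to 1.54), Elavl4 (-0.21 to 0.98), Bcl11b (-0.27 to 1.13), Rpl22 (-1.02 to 0.0505), Rpl38 (-1.14 to 0.19), Stx3 (-0.27 to 0.52) and Rps27 (-3.60 to 3.80). Of 3402 values of named genes under alternatives, 3171 kept direction and side of the threshold, 204 lost the call, 13 gained one and 14 turned. Levels near 1 FPKM limit what can be called, and no depth is known.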
